A study of Mus musculus with 6 samples.

Results

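Cyclic AMP (cAMP) signalling was examined through 42 of the 55401 genes counted in subcutaneous white adipose tissue (scWAT) of mice. The rule that picks them uses gene symbols and no measured values. They are 10 adenylyl cyclases (*Adcy*), 22 genes named as cyclic nucleotide phosphodiesterases (*Pde*), 4 regulatory and 2 catalytic subunits of protein kinase A (PKA), the anchoring proteins *Akap1* and *Akap12*, and the transcription factors *Creb1* and *Crem*. Total RNA was sequenced from 3 control mice, named YT-FF here, and from 3 mice labelled YT-AKO. All were males aged 8 weeks, kept at room temperature. YT-AKO mice had the genotype Yapfl/fl/Tazfl/fl;AdipoqCre, in which Cre under the *Adipoq* promoter acts in mature adipocytes. The sample labels give the control genotype as WT, and by the methods of the study the controls carried the floxed *Yap* and *Taz* alleles without Cre, so the floxed alleles were shared by both groups and Cre was not. The comparison asks which of these genes differed in RNA level when *Yap* and *Taz* had been targeted in adipocytes. The tissue is a mixture of cells, and fewer cells of a type and less RNA per cell cannot be told apart in it.

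cAMP is the second messenger through which noradrenaline acts on fat cells. Receptors coupled to stimulatory G proteins switch on adenylyl cyclases, which make cAMP from ATP, and phosphodiesterases break it down. cAMP releases the catalytic subunits of PKA from the regulatory subunits, anchoring proteins hold the enzyme at particular membranes, and the kinase phosphorylates lipolytic enzymes as well as CREB, a transcription factor that binds cAMP response elements. In adipocytes this route drives lipolysis and, in brown and beige cells, heat production.

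The cAMP response element has the letters TGACGTCA, and its shorter form TGACG reads CGTCA on the other strand. Promoter windows of 300 bases, with 250 before and 50 after each annotated start, were taken from RefSeq for the mouse build GRCm38.p6 and were found for 32 of the 42 genes, in 71 windows. TGACGTCA stood in 2 of these windows (2.82%, against 1.79% of 32851 windows of all genes), and both windows belong to *Prkar1a* and hold the same site. TGACG on either strand, which includes every TGACGTCA, stood in 15 windows of 13 genes (21.1%, against 20.8% of all windows). The following stretches show the *Prkar1a* element and, for comparison, the shorter form in 4 genes whose RNA differed between the groups, with the motif in capitals. They lie at chr11:109650889-109650918 (plus strand) for *Prkar1a*, chr3:146813031-146813060 (minus strand) for *Prkacb*, chr4:102421509-102421538 (plus strand) for *Pde4b*, chr5:139150033-139150062 (minus strand) for *Prkar1b* and chr8:88282952-88282981 (plus strand) for *Adcy7*. Counted from the annotated start of the window, the motifs stand at positions -49, -102, -34, -49 and -28 in that order.
Prkar1a: gcgaggcgcatTGACGTCAgcagccgaacg
Prkacb: ggggcttgaccgCGTCActtccggcgcgcc
Pde4b: gatttggctgcaCGTCAattttctcatctg
Prkar1b: tagagggcggagTGACGggcaggaggacga
Adcy7: tgatcatagagcCGTCAggggggtggggct
A match of letters is not evidence of binding. *Prkar1a*, the only carrier of the whole element among the 32 genes with a window, had a log2 fold change of -0.10 between the groups. The genes that were lower and those that were higher both included carriers of the shorter form. *Crem* and *Pde7a*, whose RNA also differed between the groups, had no window and were not searched.

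The libraries held 17740987 to 21838493 counted fragments. The study reported, by immunoblot, a clear decrease of YAP and TAZ protein in scWAT of YT-AKO mice. In these RNA counts the targeted genes gave a mixed check of the labels. *Yap1* was lower in the libraries labelled YT-AKO (log2 fold change -0.98 ± 0.167, SE, edgeR adjusted p = 0.0179), whereas *Wwtr1*, which encodes TAZ, was higher (0.89 ± 0.182, edgeR adjusted p = 0.0220). Counts over a whole gene need not fall when only some of its exons are removed, and which exons were removed was not examined. The groups are therefore called by their labels, and every direction below is that of the libraries labelled YT-AKO relative to YT-FF. YT-AKO 2 stood apart from its group, with a mean correlation of 0.936 with its group mates against 0.953 and 0.954 for the other libraries labelled YT-AKO and 0.978 to 0.981 among YT-FF. Adipocyte genes were abundant, as the labelled tissue requires. In YT-FF, 9 markers of these cells summed to 16060 to 21118 CPM (fragments per 1e6 counted, with TMM-normalized library sizes). They summed to 36537 to 80474 CPM in the libraries labelled YT-AKO. Much of that difference lay in *Cfd* (5341 to 5902 CPM and 18705 to 48819 CPM) and *Fabp4* (4072 to 7199 CPM and 9159 to 20229 CPM). *Adipoq*, *Plin1*, *Cidec*, *Lep*, *Retn* and *Pparg* did not pass an adjusted p of 0.05 in edgeR.

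Of the 42 genes, 37 had enough counts to be tested. Of these, 9 passed an adjusted p of 0.05 (24.3%), against 21.6% of all 16807 tested genes. *Prkar1b* and *Crem* were higher (5.41%, against 12.6% of all genes), and *Adcy1*, *Adcy5*, *Adcy7*, *Pde4b*, *Pde7a*, *Prkacb* and *Creb1* were lower (18.9%, against 9.01%). The share called was thus near that of all genes, with fewer calls upward and more downward. The members had a longer median exon length than all tested genes, and calls over all genes varied with length, as given below. The median log2 fold change of the 37 genes was -0.20, with 12 above and 25 below 0, and that of all tested genes was -0.02. Values of the groups did not overlap for 4 genes that were higher and 10 that were lower, and 25.7% and 25.8% of all genes showed such separation upward and downward. The direction of the counts moved with the scaling. With library totals in place of TMM factors, the median of all genes shifted to -0.34, 1137 of all genes were called higher and 2828 lower, and the same 7 members were lower while none was higher. The calls also rested on single libraries: no member was called without YT-FF 1 or YT-FF 2 (10 and 9 had an unadjusted p under 0.05 in edgeR), 2 were lower and none higher without YT-FF 3, 4 were lower and none higher without YT-AKO 3, 7 were lower and 1 higher without YT-AKO 1, and 8 were lower and 4 higher without YT-AKO 2. Over all genes, 0 of 17183 were called without YT-FF 1 and 2 of 17140 without YT-FF 2. The other 4 fits called 7.06%, 15.3%, 21.0% and 30.8% of all genes, in the order given. A call lost without YT-FF 1 or YT-FF 2, as given below for single genes, was thus lost together with nearly all others.

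**Figure D1:**
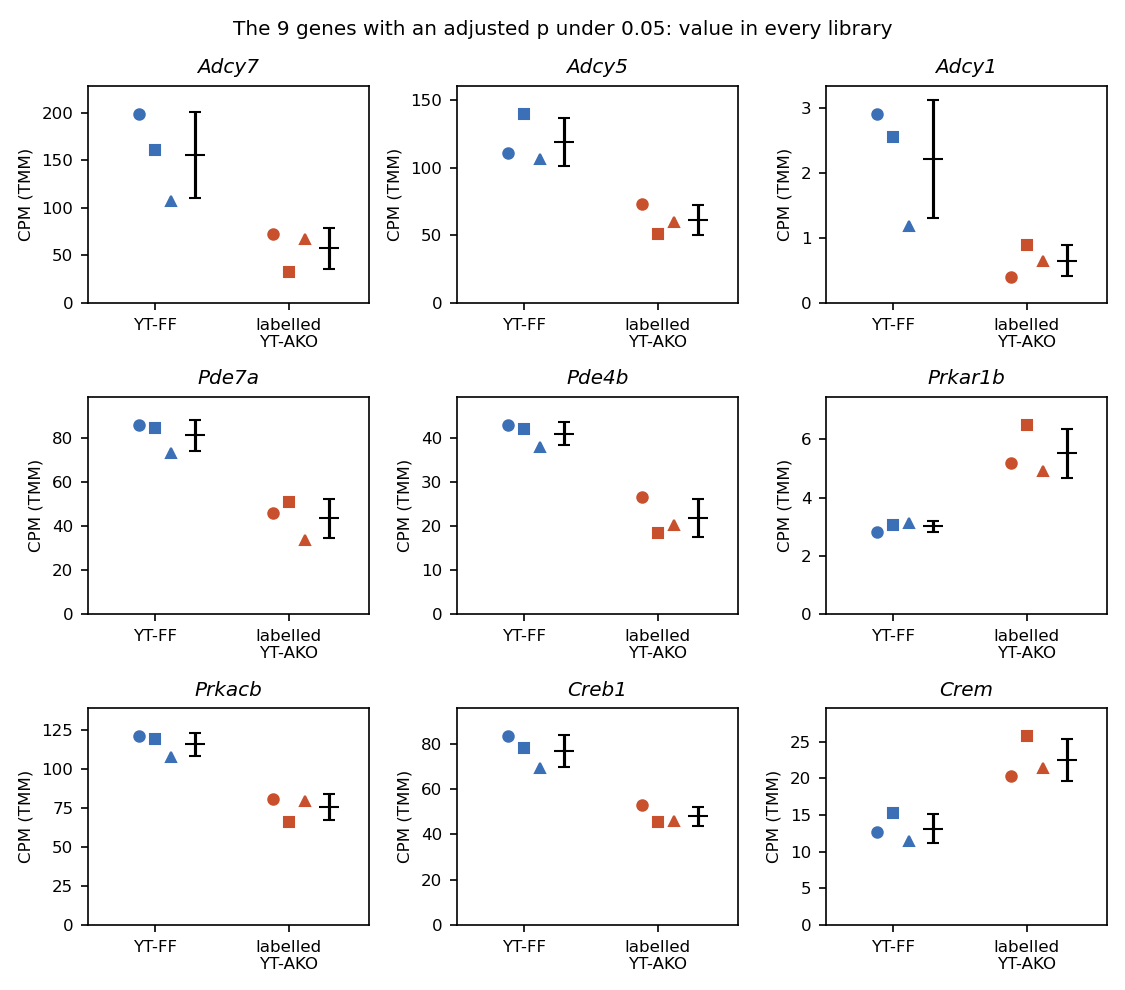
CPM (TMM-normalized, vertical axes from 0) of the 9 genes with an edgeR adjusted p under 0.05, with a marker for each library (circle 1, square 2, triangle 3) and the mean with its SD beside them. In all 9 the libraries labelled YT-AKO (red) lie apart from YT-FF (blue), higher for *Prkar1b* and *Crem* and lower for the other 7.

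Adenylyl cyclases were lower in sum. Per kilobase of exon (TMM-normalized fragments per kilobase and per 1e6 counted, FPKM), the 10 cyclases summed to 87.5, 82.3 and 69.1 in YT-FF 1 to 3 and to 55.6, 28.9 and 52.5 in YT-AKO 1 to 3, so the groups did not overlap (79.6 ± 9.52 and 45.6 ± 14.6, SD, n = 3 each). Of the 9 cyclases tested, 3 fell (33.3%, against 9.01% of all genes), none rose (12.6% of all genes), and the median log2 fold change was -0.58. Without YT-AKO 2, the lowest library, the remaining sums of that group were still below all of YT-FF.

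*Adcy7* (ENSMUSG00000031659, chr8:88272403-88329962 in mm10, as are the positions of the other called genes, plus strand), a calcium-insensitive cyclase known from blood and immune cells, stood at 198, 161 and 108 CPM in YT-FF and at 72.2, 33.0 and 67.3 CPM in the libraries labelled YT-AKO. Every value of the latter was below all of YT-FF, and the log2 fold change was -1.44 ± 0.34 (SE, edgeR adjusted p = 0.0285). *Adcy5* (ENSMUSG00000022840, chr16:35154877-35305738, plus strand), a cyclase of heart and striatum that calcium inhibits, stood at 111, 139 and 107 CPM and at 73.4, 50.7 and 59.9 CPM. All 3 of the latter were below all YT-FF values, with a log2 fold change of -0.96 ± 0.195 (edgeR adjusted p = 0.0218). *Adcy1* (ENSMUSG00000020431, chr11:7063489-7178506, plus strand), a calmodulin-stimulated cyclase best known in neurons, was scarce, counted 68, 58 and 23 times in YT-FF against 7, 15 and 11 times in the other group. It fell by 1.77 on the log2 scale (SE 0.508, edgeR adjusted p = 0.0448). With limma-voom it was not called (adjusted p = 0.064), and it was not tested where every library needed 10 counts. The calls on *Adcy5* and *Adcy7* were lost without YT-FF 1 (edgeR adjusted p = 0.11 and 0.124) or YT-FF 2 (0.119 and 0.121), and *Adcy1* kept its call only without YT-AKO 2 (0.0234) among the 6 fits that leave out a library.

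*Adcy6*, which like *Adcy5* is inhibited by calcium, had the highest level of the cyclases. It stood at 29.4, 24.9 and 26.3 FPKM in YT-FF and at 22.6, 9.41 and 21.9 FPKM in the libraries labelled YT-AKO. The groups did not overlap, but the log2 fold change of -0.58 (95% interval -1.31 to 0.15) did not pass the test (edgeR adjusted p = 0.202), and without YT-AKO 2 it was -0.27. *Adcy9*, a widely expressed cyclase that forskolin activates poorly, stood at 12.1, 14.2 and 9.89 CPM and at 4.65, 0.767 and 6.03 CPM. Its log2 fold change of -1.66 missed the threshold (edgeR adjusted p = 0.0766) and passed it without YT-AKO 2 (-1.18, edgeR adjusted p = 0.00897). *Adcy3*, which also serves olfactory neurons, was marked by the same library, at 25.9, 31.1 and 26.6 CPM in YT-FF and at 23.8, 4.66 and 32.7 CPM in YT-AKO 1 to 3. Its log2 fold change of -0.45 became 0.02 without YT-AKO 2, and 22.1% of its exon length overlaps *Cenpo*, where fragments were not counted.

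*Adcy4*, which like *Adcy2* and *Adcy7* is insensitive to calcium, was at 5.67 ± 0.33 and 5.91 ± 0.481 FPKM with overlapping groups and a log2 fold change of 0.06 (95% interval -0.29 to 0.41). *Adcy2*, at 0.271 and 0.283 FPKM, and *Adcy10*, the soluble cyclase that bicarbonate stimulates, at 0.216 and 0.353 FPKM, had intervals more than 2 log2 units wide (-1.17 to 1.29 and -0.45 to 1.86). *Adcy8* was not tested, at 1, 4 and 3 counts in YT-FF against 0, 5 and 1 in the other group. Between the leading cyclases, the share of *Adcy7* in the summed level went from 33.6%, 29.0% and 23.1% in YT-FF to 19.3%, 17.0% and 19.1%. The share of *Adcy6* overlapped between the groups (30.3% to 38.0% and 32.6% to 41.8%), as did that of *Adcy5* (17.6% to 23.6% and 15.9% to 24.4%).

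**Figure D2:**
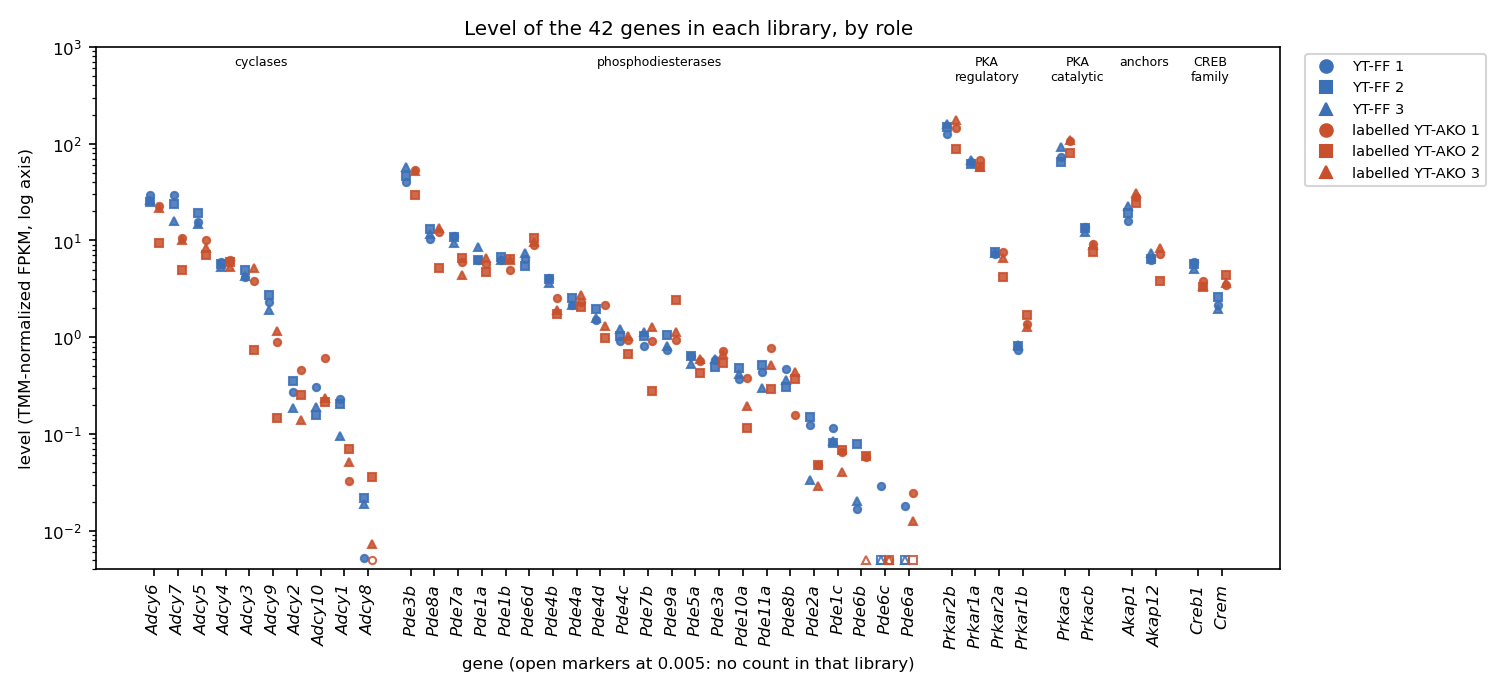
Level of each of the 42 genes in each of the 6 libraries, in TMM-normalized FPKM on a log axis, grouped by role and ordered by mean level, with YT-FF in blue and the libraries labelled YT-AKO in red. *Prkar2b* and *Prkaca* lead their families at 64.0 FPKM or more in every library, *Pde3b* leads the phosphodiesterases, and YT-AKO 2 (red squares) is the lowest library for *Adcy6*, *Adcy7* and *Adcy9*.

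Phosphodiesterases overlapped between the groups in sum. Their summed level on the FPKM scale was 104 ± 10.1 FPKM in YT-FF and 93.5 ± 17.7 FPKM in the libraries labelled YT-AKO (SD, n = 3 each). In TPM, where the median log2 ratio of all tested genes was -0.66, the sums were 393 ± 27.5 and 233 ± 90.9. Of the 18 tested, 2 fell (11.1%, close to the 9.01% of all genes) and none rose (12.6% of all genes), and the median log2 fold change was -0.20. The genes that fell encode enzymes specific for cAMP.

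*Pde4b* (ENSMUSG00000028525, chr4:102087543-102607259, plus strand), known from leukocytes and brain and a target of rolipram, stood at 42.9, 42.1 and 38.0 CPM in YT-FF and at 26.6, 18.4 and 20.3 CPM in the libraries labelled YT-AKO. It fell by 0.91 on the log2 scale (SE 0.182, edgeR adjusted p = 0.0212). *Pde7a* (ENSMUSG00000069094, chr3:19223108-19311322, minus strand), known from T cells, stood at 85.8, 84.4 and 73.3 CPM and at 45.9, 51.1 and 33.8 CPM. It fell by 0.90 on the log2 scale (SE 0.189, edgeR adjusted p = 0.0234). For both, every library labelled YT-AKO was below every YT-FF library. Both calls were lost without YT-FF 1, YT-FF 2 or YT-FF 3 (edgeR adjusted p from 0.0501 to 0.121).

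*Pde3b*, through which insulin lowers cAMP in adipocytes, was by far the leading phosphodiesterase. It stood at 40.6, 46.0 and 57.9 FPKM in YT-FF and at 53.0, 29.5 and 52.1 FPKM in YT-AKO 1 to 3, so the groups overlapped widely. Its log2 fold change was -0.10 (95% interval -0.72 to 0.52, edgeR adjusted p = 0.794), and it took a mean of 46.2% of the summed phosphodiesterase level in YT-FF and 47.2% in the libraries labelled YT-AKO. Its ratio to *Pde4b*, both in FPKM, was 9.99, 11.5 and 16.1 in YT-FF and 21.1, 16.9 and 27.0 in the libraries labelled YT-AKO. The sign of the *Pde3b* difference turned without YT-AKO 2 (0.12) and with a correction for gene length (0.26), neither of which passed the test. Its relative *Pde3a*, the cardiac and vascular form, was scarce at 0.559 and 0.642 FPKM (log2 fold change 0.20, 95% interval -0.30 to 0.70).

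The next phosphodiesterases by level also overlapped between groups. *Pde8a*, a cAMP-specific enzyme that resists common inhibitors, had 11.8 ± 1.38 and 10.2 ± 4.41 FPKM, with YT-AKO 2 alone at 5.19. *Pde1a* and *Pde1b*, which calmodulin activates, had log2 fold changes of -0.31 and -0.14, with 95% intervals of -0.76 to 0.15 and -0.51 to 0.23. *Pde4a*, *Pde4c* and *Pde4d*, the other cAMP-specific enzymes of the *Pde4* group, had log2 fold changes of 0.05, -0.26 and -0.17, none past the test, beside the fall of *Pde4b*. Whether *Pde4b* differed from them was not tested. *Pde7b*, the relative of *Pde7a*, had -0.27 with a wide interval (-1.38 to 0.84).

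Among the enzymes that act on cyclic GMP or on both nucleotides, none passed the test. *Pde5a*, the target of sildenafil, had a log2 fold change of -0.20, *Pde9a* had 0.78, *Pde10a*, known from striatum, had -0.89, *Pde11a* had 0.35 and *Pde1c* had -0.69. The cAMP-specific *Pde8b* had -0.23. *Pde9a* was highest in YT-AKO 2, at 8.61 CPM against 2.60 to 3.96 CPM in the other 5 libraries. The photoreceptor genes *Pde6a*, *Pde6b* and *Pde6c* were not tested, with at most 9 counts in any library, and a library without a count allows at most 0.128 to 0.177 CPM (3 counts, counting error only). *Pde2a*, a cyclic GMP-stimulated enzyme, was not tested either, at 18, 21 and 4 counts in YT-FF against 5, 5 and 3 in the other group. Since 64.3% of its exon length overlaps the gene model *Gm45837*, its fragments were largely left out of the counting and its level is not known. *Pde6d*, which despite its name is a carrier of prenylated proteins, stood at 13.9, 11.8 and 16.2 CPM and at 19.4, 23.1 and 21.0 CPM. It was higher without overlap, with a log2 fold change of 0.60 that missed the threshold (edgeR adjusted p = 0.0544).

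**Figure D3:**
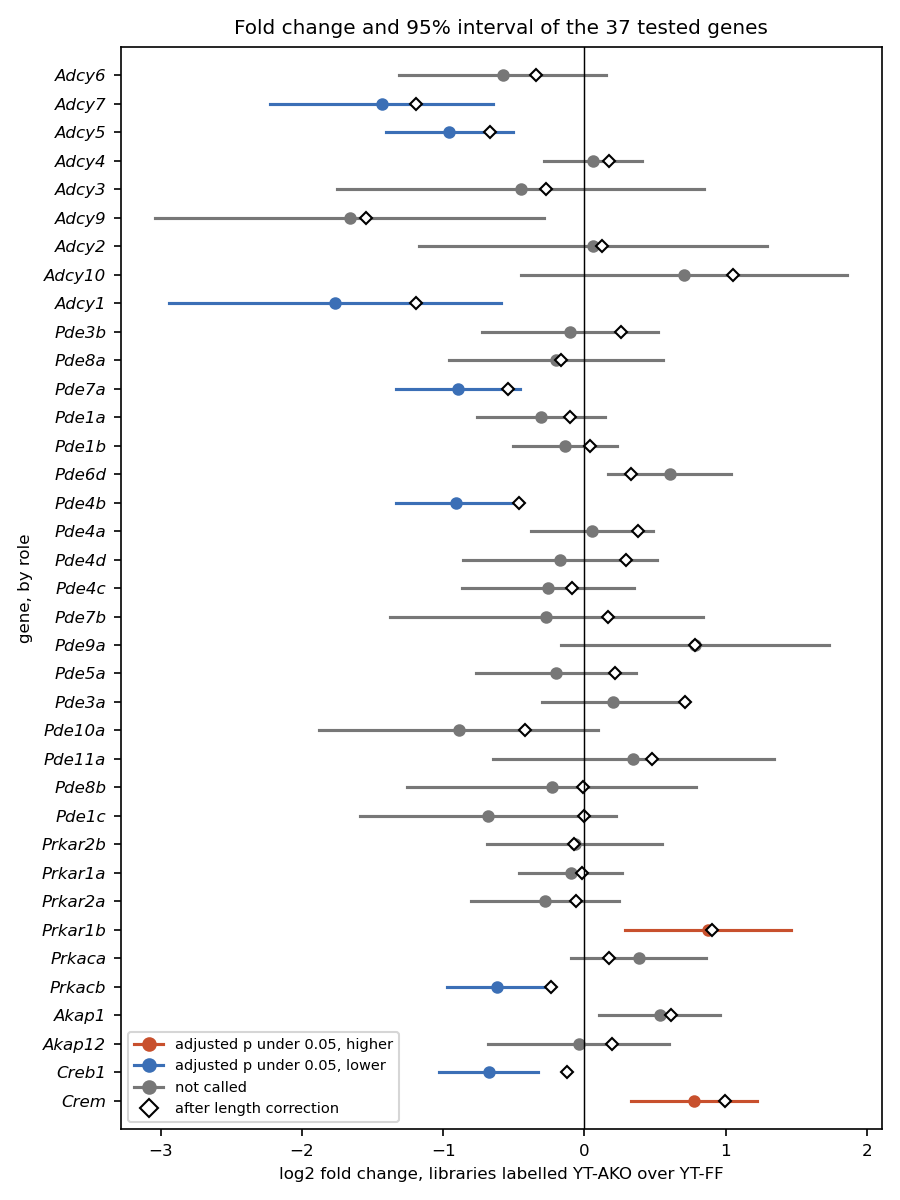
Log2 fold change with its 95% interval (edgeR) for the 37 tested genes, in order of role and level, coloured where the adjusted p is under 0.05, with an open diamond for the estimate after correction for gene length. *Adcy7* and *Adcy1* lie farthest to the left among the called genes, and the diamonds of all genes called lower lie closer to 0 than their circles.

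The regulatory subunits of PKA overlapped between the groups in sum. They reached 218 ± 18.3 FPKM in YT-FF and 206 ± 47.6 FPKM in the libraries labelled YT-AKO, where YT-AKO 2 was the lowest library at 152. In TPM, with its shift of all genes, the sums were 826 ± 53.1 and 517 ± 217. *Prkar2b*, the RIIβ subunit typical of adipocytes and brain, had the highest level of all 42 genes, at 126, 148 and 160 FPKM in YT-FF and at 147, 89.2 and 177 FPKM in YT-AKO 1 to 3. The groups overlapped, and the log2 fold change was -0.07 (95% interval -0.69 to 0.55, edgeR adjusted p = 0.862). Its share of the regulatory subunits was 66.3% and 65.8%.

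*Prkar1a*, the ubiquitous RIα subunit with the whole cAMP response element shown above, had 65.0 ± 2.87 and 60.8 ± 5.8 FPKM and a log2 fold change of -0.10 (95% interval -0.46 to 0.27). *Prkar2a*, the RIIα subunit, had -0.28 (95% interval -0.80 to 0.25). *Prkar1b* (ENSMUSG00000025855, chr5:139017306-139150001, minus strand), the RIβ subunit best known in neurons, was the only regulatory subunit that rose. It was counted 66, 70 and 61 times in YT-FF against 89, 110 and 83 times in the other group, which is 3.01 ± 0.174 and 5.52 ± 0.847 CPM. Its log2 fold change was 0.87 ± 0.254 (edgeR adjusted p = 0.0460). It made up at most 1.12% of the summed regulatory level in every library, and its call was lost in each of the 6 fits that left out a library (edgeR adjusted p from 0.0511 to 0.165). Of its exon length, 8.95% overlaps *Gm15672*.

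Of the catalytic subunits, *Prkacb* fell and *Prkaca* did not pass the test. *Prkaca*, encoding the main catalytic subunit Cα, stood at 72.9, 64.0 and 92.5 FPKM in YT-FF and at 108, 81.2 and 110 FPKM in the libraries labelled YT-AKO. The groups overlapped, and the log2 fold change of 0.38 (95% interval -0.10 to 0.86) did not pass the test (edgeR adjusted p = 0.198) except without YT-AKO 2 (0.51, edgeR adjusted p = 0.0463). *Prkacb* (ENSMUSG00000005034, chr3:146729574-146812990, minus strand), encoding Cβ, stood at 121, 119 and 108 CPM in YT-FF and at 81.2, 66.0 and 79.7 CPM in the libraries labelled YT-AKO. It fell by 0.62 on the log2 scale (SE 0.154, edgeR adjusted p = 0.0321), a call that held without YT-AKO 1 or YT-AKO 2 and was lost without any of the other 4 libraries (edgeR adjusted p from 0.0571 to 0.14).

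The ratio of *Prkaca* to *Prkacb*, both in FPKM, was 5.28, 4.71 and 7.54 in YT-FF and 11.6, 10.8 and 12.1 in the libraries labelled YT-AKO, without overlap. *Prkaca* made up 84.9% of the catalytic level in YT-FF and 92.0% in the libraries labelled YT-AKO. Such a ratio does not depend on the scaling of a library, but its genes differ in exon length (2488 bp for *Prkaca* and 8772 bp for *Prkacb*), which bears on the length trend given below. The summed regulatory level over the summed catalytic level was 2.30, 2.82 and 2.25 in YT-FF and 1.91, 1.72 and 2.03 in the libraries labelled YT-AKO, again without overlap. The length trend bears on this ratio too. Its leading regulatory genes, *Prkar2b* (3652 bp) and *Prkar1a* (4321 bp), are longer than *Prkaca*. The ratio was not corrected for length, and *Prkaca* was at 0.18 after the length correction (edgeR adjusted p = 0.561). With 3 libraries a group, an exact permutation test of a single ratio cannot go below p = 0.1.

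**Figure D4:**
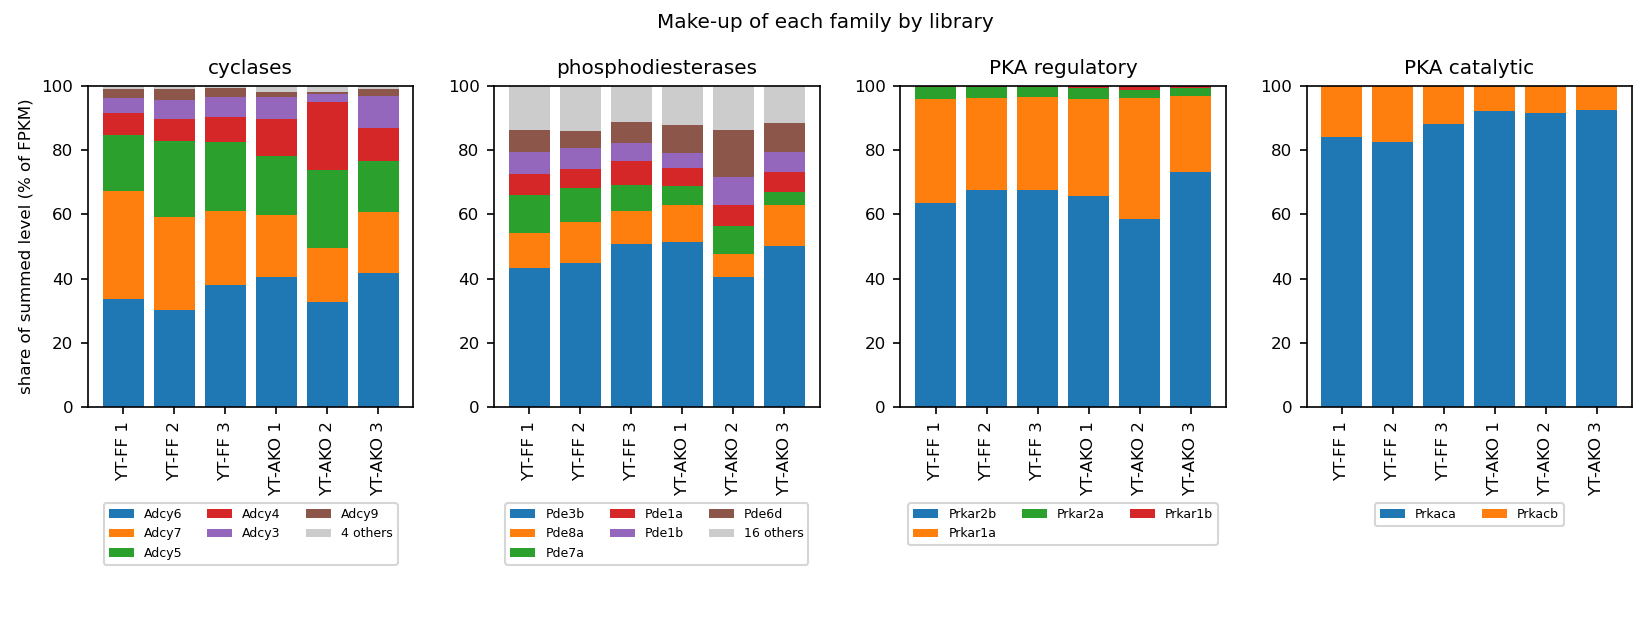
Share of each gene in the summed FPKM of its family (vertical axis, percent) for each library, with the 6 leading cyclases and phosphodiesterases coloured and the rest grey. The share of *Prkacb* is smaller in all 3 libraries labelled YT-AKO than in YT-FF, whereas *Pde3b* and *Prkar2b* hold similar shares in both groups.

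Of the anchoring proteins, *Akap1*, which tethers PKA to the mitochondrial outer membrane, was at 16.0, 19.2 and 22.6 FPKM in YT-FF and at 27.9, 24.5 and 31.2 FPKM in the libraries labelled YT-AKO. The groups did not overlap, and the log2 fold change of 0.53 ± 0.184 missed the threshold (edgeR adjusted p = 0.0706). It passed after the length correction (0.61, edgeR adjusted p = 0.0480) and without YT-AKO 2 (0.62, edgeR adjusted p = 0.0222). On the TPM scale, which uses no TMM factors and shifts all genes as given above, the means of *Akap1* were 73.0 and 68.5 TPM and those of *Prkaca* 289 and 247 TPM, so that the direction of both turned. That of *Pde6d* turned likewise (24.2 and 23.2 TPM). *Akap12*, or gravin, an anchor at the plasma membrane near β-adrenergic receptors, was at 6.69 ± 0.595 and 6.50 ± 2.38 FPKM, with YT-AKO 2 the lowest at 3.83 (log2 fold change -0.04, 95% interval -0.68 to 0.60).

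Of the transcription factors at the end of the pathway, *Creb1* fell and *Crem* rose, and only the rise was called after the length correction. *Creb1* (ENSMUSG00000025958, chr1:64532645-64604548, plus strand), the factor that PKA activates, stood at 83.3, 78.2 and 69.2 CPM in YT-FF and at 52.8, 45.3 and 46.0 CPM in the libraries labelled YT-AKO. It fell by 0.68 on the log2 scale (SE 0.152, edgeR adjusted p = 0.0259). *Crem* (ENSMUSG00000063889, chr18:3266048-3337748, minus strand), whose transcripts include both activators and the inducible repressor ICER, stood at 12.7, 15.2 and 11.4 CPM and at 20.3, 25.7 and 21.3 CPM. Its log2 fold change was 0.77 ± 0.192 (edgeR adjusted p = 0.0319), it was not called with library totals (0.43, edgeR adjusted p = 0.141), and counts per gene do not tell its isoforms apart. Of its exon length, 8.01% overlaps *Gm6225*. Its TPM means were 8.50 and 9.04. Both calls held without YT-AKO 1 or YT-AKO 2 and were lost without any of the other 4 libraries (edgeR adjusted p from 0.0511 to 0.135). The ratio of *Crem* to *Creb1* in FPKM was 0.355, 0.454 and 0.385 in YT-FF and 0.899, 1.32 and 1.08 in the libraries labelled YT-AKO, for exon lengths of 5895 and 13742 bp. That the ratio did not overlap follows from the separation of both genes and adds no further result. After the length correction *Creb1* was at -0.12 (edgeR adjusted p = 0.56) and *Crem* at 0.997 (edgeR adjusted p = 0.0297).

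Over all tested genes, longer genes tended to have lower log2 fold changes. Spearman's rho of exon length with the log2 fold change was -0.376, a value across genes, which do not replicate one another. It was not computed for the members alone. The tested members were long, with a median of 6378 bp against 3888 bp for all tested genes, and 27 of the 37 lay in the longest 8 of 20 bins of equal size. In the longest bin, which holds *Creb1* and *Adcy1*, the median of all genes was -0.61 and 36.4% of genes were called lower. A fit with a smooth length term in each library moved the members' median to -0.005, beside 0.058 for all genes. It called *Crem* (0.997) and *Akap1* (0.61) higher and *Adcy5* (-0.67) and *Adcy7* (-1.20) lower, against 10.1% of all genes higher and 4.54% lower. Over all genes it gave 1692 higher and 763 lower calls, where the fit without the term gave 2121 and 1515. *Prkacb* went to -0.24 (edgeR adjusted p = 0.211), *Pde7a* to -0.54 (0.123), *Pde4b* to -0.46 (0.0675), *Adcy1* to -1.20 (0.149) and *Prkar1b* to 0.91 (0.0552). The part of RNA quality or library preparation in this trend was not tested.

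**Figure D5:**
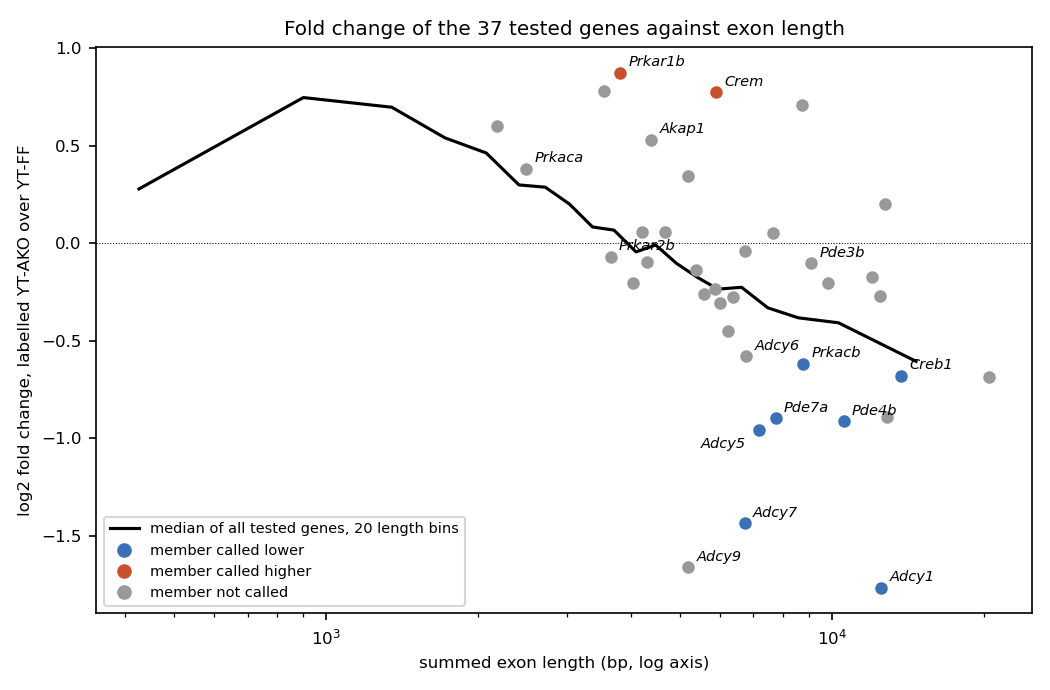
Log2 fold change of the 37 tested genes (vertical axis) against summed exon length in bp (log axis), with the median of all tested genes in 20 length bins as a black line. *Creb1* lies close to the line, *Adcy5*, *Adcy7* and *Adcy9* lie below it, and *Crem* and *Prkar1b* lie above it.

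Other genes of the pathway were counted in lists, to be read against 12.6% of all genes called higher and 9.01% lower. Of 18 receptors coupled to adenylyl cyclase, 2 fell and none rose (median 0.06). The genes that fell act through inhibitory and stimulatory G proteins respectively. They are the adenosine A1 receptor gene *Adora1* (-0.95, edgeR adjusted p = 0.0230) and the ACTH receptor gene *Mc2r* (-1.04, edgeR adjusted p = 0.0406). Of 11 G protein subunits, *Gnb2* (0.83) and *Gnb5* (1.03) rose and none fell (median 0.18). Of 10 PKA inhibitors and other cAMP-binding proteins, *Popdc2* (1.02) rose and none fell (median -0.37).

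Downstream, against the same 12.6% and 9.01%, of 10 further anchoring proteins *Akap8* (-0.72), *Akap11* (-0.73) and *Akap13* (-0.85) fell and none rose. Of 9 CREB partners and regulators, *Crtc3* (-0.64) and the acetyltransferase genes *Crebbp* (-0.79) and *Ep300* (-1.22) fell and none rose. None of these 6 genes was called after the length correction, which moved the lists' medians from -0.72 to -0.19 and from -0.64 to -0.22. Of the genes that rose in the pathway lists, *Gnb2* (edgeR adjusted p = 0.0511), *Popdc2* (0.0878) and *Pnpla2* (0.0643) were not called after that correction either, while the G protein gene *Gnao1* was (1.02, edgeR adjusted p = 0.0453). Of 12 cAMP-responsive genes, the uncoupling protein gene *Ucp1* (5.27) and the deiodinase gene *Dio2* (3.06) rose and none fell (median 0.22). Of 5 lipolysis proteins under PKA control, *Plin5* (2.40), the hormone-sensitive lipase gene *Lipe* (0.84) and the triglyceride lipase gene *Pnpla2* (0.79) rose and none fell (median 0.79). Of 9 genes of cyclic GMP synthesis and its kinases, the natriuretic peptide receptor gene *Npr1* (0.99) rose and none fell (median -0.27). Of 3 genes named after phosphodiesterases outside the 42, none passed the test (median 0.06). Without YT-FF 1 none of these listed genes was called, as no gene of the 17183 then tested passed (4665 had an unadjusted p under 0.05 in edgeR).

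Markers of other cells differed between the groups beside these genes, and their counts too stand against 12.6% of all genes higher and 9.01% lower. B cell markers, of which 3 of 6 fell and none rose, summed to 1047 to 1236 CPM in YT-FF and 619 to 953 CPM in the libraries labelled YT-AKO. Of 9 macrophage markers, 3 rose and none fell (1291 to 1477 CPM and 1995 to 2755 CPM), and of 6 T cell markers, 1 fell and none rose (316 to 493 CPM and 277 to 613 CPM). *Adcy7*, *Pde4b* and *Pde7a* are known from blood cells, and the part of B cells in their falls was not tested. Of 9 adipocyte markers, 3 rose and none fell. Skeletal muscle genes, with 1 of 7 higher, spread from 210 to 3154 CPM in the libraries labelled YT-AKO and from 115 to 424 CPM in YT-FF. Of 7 fibroblast markers, 2 rose and 1 fell, of 7 smooth muscle markers 1 rose, and of 7 endothelial markers 1 fell. None of 6 Schwann cell markers (259 to 332 CPM and 211 to 329 CPM), of 2 tested sympathetic neuron markers (2.99 to 4.39 CPM and 2.56 to 4.48 CPM) and of 2 tested epithelial markers (3.66 to 5.10 CPM and 3.84 to 4.88 CPM) passed the test. Of the 6 sympathetic neuron markers, 2 had no count in any library.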

How the data were processed

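RNA-seq of scWAT compared 3 YT-FF mice with 3 labelled YT-AKO. The authors made libraries with the NEBNext Ultra kit, mapped paired reads with HISAT2 to mm10, and counted fragments over GENCODE vM25 exons with featureCounts 2.0.1. The deposited values are raw counts per gene. Counting was unstranded and omitted fragments with several places or genes. Symbols were matched for 55141 of 55401 identifiers.

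Counts were tested in R 4.3.3 with edgeR 4.0.16, using TMM factors, filterByExpr (minimum count 10, total 15), the quasi-likelihood test and Benjamini-Hochberg adjustment over 16807 genes. Calls needed an adjusted p under 0.05. The biological coefficient of variation was 0.288. CPM and FPKM use the TMM factors and summed exon lengths. SE is the fold change over the root of F. The test was also run on simulated counts with planted changes larger than those of the called members. These counts had no length trend and no outlying library, so they do not check the calls under such conditions. The labels number the samples of a group, and the methods of the study give 3 mice per group.

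All 42 genes are named. Values in every library are given for called genes and the leading gene of each role, and for other genes where a library or overlap stood out, chosen after their values were seen. From the pathway lists, called genes are named. The members and lists were chosen with earlier results of these data known. Alternatives used DESeq2 1.42.0, limma-voom (limma 3.58.1), upper-quartile factors, library totals, other filters, robust estimation, a replicate block, a length correction (spline, 6 degrees of freedom per library), TPM, a stricter call and each library left out. Planned protein sequences were not used here.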

Additional observations from a re-analysis of the deposited data

How the results depend on the processing

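The counts of members called, 2 higher and 7 lower with edgeR, depended on the libraries. With each library left out in turn, 0 to 4 were called higher and 0 to 8 lower. Without YT-FF 1 or YT-FF 2 no member was called, though 10 and 9 had an unadjusted p under 0.05, and over all genes 0 and 2 were called, against 4665 and 4507 at that unadjusted threshold. Without YT-AKO 2, 4 were higher and 8 lower. None was higher with library totals, 1 was with upper-quartile factors and 1 with no filter. Over all genes these settings gave 1137, 1966 and 2592 higher calls in that order. The length correction left 2 lower. None passed a stricter rule, with 0.01 for the adjusted p and more than 1 for the size of the log2 fold change, up or down. The share of all genes passing that rule was not counted. An adjusted p under 0.01 was hard to reach for any gene. The B cell marker *Cd22*, with an unadjusted p of 7.87e-05 in edgeR, had an adjusted p of 0.0166. The stricter count is therefore no result about the members. DESeq2 called 3 higher and 8 lower (28.8% of all genes), and limma-voom 2 and 7 (21.6%), with *Adcy9* in place of *Adcy1*. In TPM, the 12 levels of the leading genes moved by more than the spread between replicates and their 12 shares did not. Within a library TPM and FPKM differ only by a common factor, so neither outcome bears on how stable the values are. No called gene changed direction in any alternative.

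The replicate numbers gave no clear pairing of the libraries: same-numbered libraries deviated with correlations of 0.126, -0.118 and -0.0893. These are deviations from means of 3 libraries a group, so they cannot exclude a pairing. With the replicate block, 0 members were called higher and 0 lower (13 at an unadjusted p under 0.05), with 24 higher and 9 lower over all genes. The block with the length correction also gave 0 and 0 (10 unadjusted), with 59 higher and 22 lower over all genes. Not every library correlated best with its own number.

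Direction turned only among genes that were not called. The log2 fold change of *Adcy2* was -0.052 with limma-voom, -0.27 with library totals and -0.025 with the replicate block. Library totals gave -0.27 for *Adcy4*, -0.11 for *Pde3a* and -0.26 for *Pde4a*. The length correction, without and with the block, gave 0.20 and 0.16 for *Akap12*, 0.040 and 0.022 for *Pde1b*, 0.26 and 0.27 for *Pde3b*, 0.29 and 0.26 for *Pde4d*, 0.22 and 0.22 for *Pde5a*, and 0.17 and 0.028 for *Pde7b*. Leaving out YT-AKO 2 gave 0.018 for *Adcy3* and 0.050 for *Pde4d*, YT-AKO 1 gave -0.020 for *Pde11a*, and YT-AKO 3 gave -0.051 for *Pde4a*. The cause of these changes was not tested. For the pathway and marker lists, 498 of 640 counts stayed within 1.5 times those of the report. Counts of 0 that stayed at 0 are among the 498, so this number does not measure how far the calls held.

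With each library left out, the log2 fold change ran from -0.45 to 0.39 for *Adcy2*, -0.97 to 0.02 for *Adcy3*, -0.26 to 0.23 for *Akap12*, -0.02 to 0.63 for *Pde11a*, -0.23 to 0.12 for *Pde3b*, -0.05 to 0.15 for *Pde4a*, -0.54 to 0.05 for *Pde4d*, -0.74 to 0.14 for *Pde7b*, -0.44 to 0.11 for *Pde8a*, -0.49 to 0.10 for *Pde8b* and -0.29 to 0.16 for *Prkar2b*.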
